A study of Homo sapiens with 16 samples.

Results

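The transcriptional response of neutrophil-like HL-60 cells to a high dose of lipoteichoic acid (LTA) was compared between 24 h and 4 h, as (LTA at 24 h minus untreated at 24 h) minus (LTA at 4 h minus untreated at 4 h). HL-60 is an established human promyelocytic leukaemia line, and the cells used here were wild-type and differentiated (dHL-60). The comparison took its 8 libraries from the 16 of the series by their labels: 2 of untreated dHL-60 and 2 of dHL-60 given 10 µg/ml Staphylococcus aureus LTA at 4 h, and the same 2 groups of 2 at 24 h. The fit covered all 12 dHL-60 libraries, because the 4 libraries given 1 µg/ml LTA add to the estimate of the spread, and the remaining 4 libraries, of undifferentiated cells, were not used. All groups were 1 cell line, so nothing here speaks to variation between people, and the labels used here do not name the agent that differentiated it. The labels do not say whether the 2 libraries of a group were grown apart. The p-values therefore reflect the spread between these libraries alone, and that spread may be technical.

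LTA is an amphiphilic polymer anchored in the membrane of Gram-positive bacteria, and preparations of it are sensed by TLR2, which pairs with TLR1 or TLR6 and is helped by the coreceptor CD14. The receptors signal through the adaptor MYD88 to NF-κB and MAP kinases, which switch on cytokine and chemokine genes, and negative regulators such as NF-κB inhibitors and MAP kinase phosphatases are induced with them. A response at a later time is measured against untreated cells of that time, so it can differ from the early one because the treated level moved, because the untreated level moved, or both.

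Because the response difference of a gene equals the change of its treated level from 4 h to 24 h minus the change of its untreated level, both changes were tested beside it. A gene was called where edgeR's quasi-likelihood test gave a Benjamini-Hochberg adjusted p under 0.05 over the 11866 genes tested. Levels are CPM, counts scaled to a common library total, and both libraries of a group are given. Differences are log2 values ± SE. The SE was taken as the absolute log2 value divided by the square root of the test's F value, and is approximate at low counts. The 8 libraries held 9779987 to 16530277 counts, and in every dHL-60 group the pair was further apart than sampling noise (chi-square per degree of freedom 10.9 to 19.96). The TMM scaling factors were lowest in the LTA libraries at 4 h (0.8307 and 0.8636), against 0.9934 to 1.1368 in the other 6 libraries of the comparison. The neutrophil markers ITGAM, at 127 and 121 CPM, and FPR1, at 146 and 97.7 CPM, were present in untreated cells at 4 h. Promyelocyte genes were abundant in the same libraries. The summed level of that list was 11540 and 14880 CPM, most of it MPO (myeloperoxidase). That of the list of mature neutrophil genes was 6692 and 8838 CPM. Sums of a list are given here and below with the lower library first, not by replicate number. In bulk RNA, fewer cells of a type and less RNA per cell cannot be told apart, and this holds for each change below.

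The response to 10 µg/ml LTA differed between 24 h and 4 h for 4001 genes, 33.7% of those tested. It was more positive at 24 h for 2339 genes (19.7%) and more negative for 1662 (14%). The median difference over all tested genes was 0.04. At an unadjusted p under 0.05 there were 5228 genes. More negative genes numbered 1049 without untreated 24 h replicate 1 and 1063 without LTA 4 h replicate 1. The parts of the response difference were called as follows: 4903 genes (41.3%) for LTA against untreated cells at 4 h, 5056 (42.6%) for the same at 24 h, 4853 (40.9%) for the change of untreated cells and 5548 (46.8%) for the change of treated cells. These comparisons share libraries and are not independent of each other. Of the genes called at 4 h, 48.5% were higher with LTA, but 36.4% under upper-quartile scaling. That scaling shifted the all-gene median response at 4 h from -0.04 to -0.17. Without LTA 4 h replicate 1, 1536 genes were called lower at 4 h (2524 with it) and 1853 rose in treated cells (2853 with it). Without untreated 24 h replicate 1, 1470 were called lower at 24 h (2259 with it) and 1274 rose in untreated cells (2114 with it).

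Most of the called differences came with a called movement of the treated level, of the untreated level or of both. Of the 4001 genes, 1637 (40.9%) had a called change in treated cells only and 1147 (28.7%) a called change in untreated cells only. A further 644 (16.1%) moved in opposite directions in treated and untreated cells, 425 (10.6%) moved the same way by different amounts, and for 148 (3.7%) neither change was called. A missed call in untreated or treated cells does not show that the level there stayed the same. Without LTA 4 h replicate 1 the treated-only genes numbered 999, those moving in opposite directions 396 and those moving the same way 240. Without untreated 24 h replicate 1 the untreated-only genes numbered 597, and the other 2 groups 380 and 219. The treated-only genes numbered 1073 without LTA 24 h replicate 1, the untreated-only genes 739 without untreated 4 h replicate 1, and those moving the same way 252 without untreated 24 h replicate 2. By size alone, the treated level moved further than the untreated level in 2286 genes (57.1%) and less far in 1715 (42.9%).

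**Figure D1:**
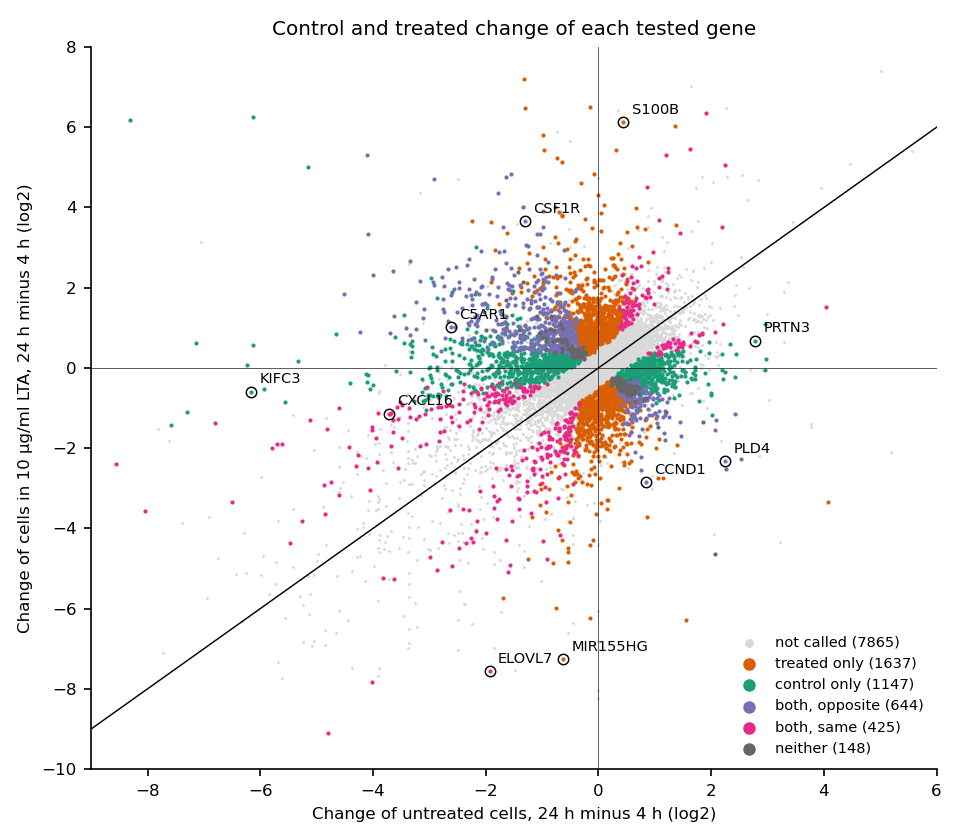
Each point is 1 of the 11866 tested genes, placed by the log2 change of its level from 4 h to 24 h in untreated dHL-60 (horizontal) and in dHL-60 with 10 µg/ml LTA (vertical), and genes on the diagonal have no response difference. Colours give the class of the 4001 called genes, circles mark genes named in the text, and 6 genes lie outside the plotted range.

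By sign, these classes had the following shares. Among the 2339 genes with a more positive response at 24 h, the untreated level fell in 1324 (56.6%) and the treated level rose in 1429 (61.1%). Of these genes 700 (29.9%) had a called change in untreated cells only, with a median change of -1.16 there and 0.13 in treated cells. In 481 (20.6%) the untreated level fell while the treated level rose. Among the 1662 genes with a more negative response, the treated level fell in 1093 (65.8%) and the untreated level rose in 651 (39.2%). For 773 of them (46.5%) only the treated change was called, with a median of -0.99 in treated cells and 0.09 in untreated cells.

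Seen as responses, the more positive set held 768 genes (32.8%) that LTA raised at 24 h with no call at 4 h, 743 (31.8%) that LTA lowered at 4 h with no call at 24 h, and 450 (19.2%) that were lower with LTA at 4 h and higher with LTA at 24 h. The more negative set held 648 genes (39%) raised at 4 h with no call at 24 h and 584 (35.1%) lowered at 24 h with no call at 4 h. Another 178 (10.7%) were higher with LTA at 4 h and lower at 24 h.

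**Figure D2:**
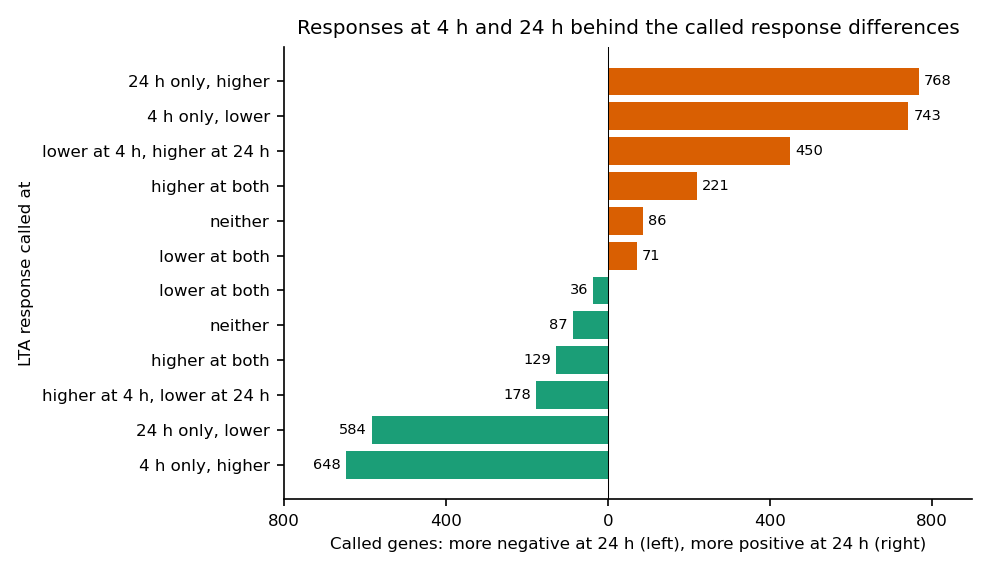
Bars count the called genes by the calls of the LTA response at 4 h and at 24 h, to the right for the 2339 genes with a more positive response at 24 h and to the left for the 1662 with a more negative one. The longest bars are genes called higher with LTA at 24 h with no call at 4 h (768) and genes called lower at 4 h with no call at 24 h (743).

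Genes whose treated level moved, with no call in untreated cells, included some that were high with LTA at 4 h alone and some that were high with LTA at 24 h alone. MIR155HG, the host gene of microRNA-155 (chromosome 21, 25562145 to 25575168 on GRCh38), was at 1.43 and 2.18 CPM untreated and 139 and 191 CPM with LTA at 4 h, and 1.6 and 0.661 CPM untreated and 0.847 and 1.25 CPM with LTA at 24 h. The LTA libraries at 4 h stood far above the other 6, and the groups overlapped at 24 h. Its response difference was -6.64 ± 0.72 (adjusted p = 2.52e-05), made of a response of 6.49 at 4 h and -0.15 at 24 h, and the treated level fell by 7.26 ± 0.40. INHBA, which encodes the activin A subunit, had 18.3 and 23 CPM with LTA at 4 h and at most 0.418 CPM in the other 6 libraries, with a difference of -6.08 ± 1.52 (adjusted p = 0.00803). On 3 counts in untreated cells at 4 h, its response there was 149.7-fold (95% counting interval 50.9 to 729). The difference of INHBA was -9.98 without untreated 4 h replicate 2. The adaptor gene SH2D3A, at 7.83 and 7.19 CPM with LTA at 4 h and at most 0.924 CPM in the other 6 libraries of the comparison, had a difference of -4.25 ± 0.58 (adjusted p = 1.30e-04).

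In the other direction, S100B, an S100 calcium-binding protein (chromosome 21, 46598604 to 46605082), was at 6.64 and 5.71 CPM untreated and 2.94 and 3.46 CPM with LTA at 4 h, and 8.78 and 7.86 CPM untreated and 278 and 172 CPM with LTA at 24 h. The LTA libraries at 24 h were the highest by a wide margin, and at 4 h the LTA libraries lay below the untreated ones (-0.94), a call lost without untreated 4 h replicate 1 or either LTA 4 h library (-1.07 to -0.83, adjusted p 0.0632 to 0.142). The response difference was 5.69 ± 0.39 (adjusted p = 7.20e-07), and the treated level rose by 6.13 ± 0.28. DAB2, an endocytic adaptor, had 1.74 and 5.71 CPM untreated and 0 and 0.28 CPM with LTA at 4 h, and 1.7 and 2.2 CPM untreated and 8.22 and 8.85 CPM with LTA at 24 h. With 3 counts in the LTA libraries at 4 h, its treated level at 24 h was 59.7-fold higher (95% counting interval 20.2 to 292), and the fitted response difference was 6.78 ± 0.86 (adjusted p = 7.25e-05). It was 10.74 without LTA 4 h replicate 2.

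Other genes had a called change in untreated cells and none in treated cells, so that the later response was measured against a control that had moved. KIFC3, a minus-end directed kinesin (chromosome 16, 57758217 to 57862858), was at 19.4 and 17.4 CPM untreated and 17.7 and 25.5 CPM with LTA at 4 h, and 0.319 and 0.147 CPM untreated and 8.98 and 19.5 CPM with LTA at 24 h. The untreated libraries at 24 h were the only low ones, while the LTA libraries at 24 h overlapped both groups at 4 h. The response difference of 5.58 ± 0.60 (adjusted p = 2.22e-05) had 2 parts: the untreated level fell by 6.17 ± 0.48, and the treated change of -0.59 was not called. CCND3, which encodes cyclin D3 (chromosome 6, 41934933 to 42050035), had the same shape at higher levels, 214 and 197 CPM untreated and 237 and 264 CPM with LTA at 4 h, and 50.4 and 61.5 CPM untreated and 325 and 289 CPM with LTA at 24 h. The difference for CCND3 was 2.17 ± 0.20 (adjusted p = 6.11e-06). Here too the untreated libraries at 24 h were far below all others. KYNU, kynureninase of tryptophan breakdown, had 0 counts in untreated cells at 24 h and 7.11 and 7.11 CPM with LTA, which makes the response at 24 h at least 76.8-fold higher with that group set at a floor of 3 counts and the response difference at least 2.15. The call of KYNU (adjusted p = 0.0336) was lost without untreated 4 h replicate 2, either untreated 24 h library or LTA 24 h replicate 1 (4.47 to 5.38, adjusted p 0.054 to 0.145), and the call of its untreated change was lost without untreated 4 h replicate 2 or untreated 24 h replicate 1 (-5.86 to -5.00, adjusted p 0.0742 to 0.101).

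With the opposite sign, S1PR3, a receptor for sphingosine 1-phosphate, was at 1.12 and 1.43 CPM untreated and 3.33 and 4.67 CPM with LTA at 4 h, and 6.65 and 7.27 CPM untreated and 2.88 and 3.97 CPM with LTA at 24 h. Untreated cells at 24 h were the highest group, and the treated groups at the 2 times overlapped. Its response difference was -2.64 ± 0.57 (adjusted p = 0.00317), with a rise of 2.43 ± 0.41 in untreated cells. CCDC169, a coiled-coil protein, was at 5.7 and 5.66 CPM in untreated cells at 24 h and at most 1.51 CPM in the other 6 libraries, with a difference of -2.33 ± 0.58 (adjusted p = 0.00754). MIR1244-2, a microRNA gene with near-identical copies, so that its counts are uncertain, had a difference of -2.49 ± 0.69 (adjusted p = 0.0145), a call lost without untreated 24 h replicate 1 (-1.77, adjusted p 0.0831).

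A further set moved in opposite directions in the 2 arms. CSF1R, the receptor for macrophage colony-stimulating factor (chromosome 5, 150053295 to 150113365), was at 71.3 and 42.5 CPM untreated and 10.6 and 9.43 CPM with LTA at 4 h, and 23.3 and 22.6 CPM untreated and 116 and 137 CPM with LTA at 24 h. LTA libraries were the lowest group at 4 h and the highest at 24 h, with no overlap at either time. The response was -2.50 at 4 h and 2.46 at 24 h, a difference of 4.97 ± 0.31 (adjusted p = 3.95e-07). C5AR1, the receptor for the complement fragment C5a (chromosome 19, 47307477 to 47322066), was at 102 and 100.2 CPM untreated and 123 and 125 CPM with LTA at 4 h, and 16.7 and 16.2 CPM untreated and 284 and 216 CPM with LTA at 24 h. It fell by 2.62 ± 0.18 in untreated cells and rose by 1.01 ± 0.16 in treated cells, with a difference of 3.62 ± 0.24 (adjusted p = 6.35e-07). At 4 h the LTA libraries were higher by a margin that was not called (0.30).

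GPRIN3, a protein that binds G protein subunits, went from 0.0979 and 0.56 CPM to 8.05 and 9.9 CPM with LTA and from 0.817 and 1.6 CPM to 0.16 and 0.147 CPM without it, and had a difference of 7.63 ± 0.76 (adjusted p = 1.26e-05). LILRB1, an inhibitory receptor for MHC class I, went from 0.392 and 1.77 CPM to 29.9 and 30.4 CPM with LTA and from 3.98 and 3.95 CPM to 1.33 and 1.18 CPM without it, with a difference of 6.41 ± 0.64 (adjusted p = 1.22e-05). CX3CR1, the fractalkine receptor, stood at 25 and 27.1 CPM with LTA at 24 h and at most 2.02 CPM in the other 6 libraries, with a difference of 6.37 ± 0.74 (adjusted p = 3.79e-05). For all 3 genes the LTA libraries at 24 h were the highest of the 8. The response of GPRIN3 at 4 h (-1.85) was lost without untreated 4 h replicate 2 or LTA 4 h replicate 1 (-1.27 to -1.12, adjusted p 0.175 to 0.192), and that of LILRB1 (-1.85) was lost without LTA 4 h replicate 1 (-1.16, adjusted p 0.105). The fall of LILRB1 in untreated cells (-1.64) was lost without either untreated 24 h library (-1.74 to -1.56, adjusted p 0.0523 to 0.0582), and that of CX3CR1 (-1.55) was lost without untreated 4 h replicate 2 or either untreated 24 h library (-1.70 to -0.71, adjusted p 0.138 to 0.493) and with upper-quartile scaling (adjusted p 0.0517).

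With the opposite signs, CCND1, which encodes cyclin D1 (chromosome 11, 69641156 to 69654474), was at 17.3 and 17 CPM untreated and 112 and 109 CPM with LTA at 4 h, and 28.8 and 32.5 CPM untreated and 13.2 and 17.4 CPM with LTA at 24 h. LTA libraries were higher than untreated ones at 4 h and lower at 24 h, and the difference was -3.69 ± 0.21 (adjusted p = 3.95e-07). In the annotation 11.3% of its exon bases overlap a gene on the other strand. PLD4, an exonuclease of the endolysosome, was at 6.71 and 6.61 CPM in untreated cells at 24 h, at 0.254 and 0.279 CPM with LTA, and between 1.09 and 1.74 CPM at 4 h in either arm. Its difference was -4.58 ± 0.56 (adjusted p = 5.59e-05). SDK2, a cell adhesion molecule, went from 5.51 and 3.53 CPM to 16.3 and 21.3 CPM in untreated cells and from 3.72 and 3.36 CPM to 0.762 and 1.6 CPM in treated cells, with a difference of -3.60 ± 0.52 (adjusted p = 2.00e-04). Its treated change of -1.54 was lost without LTA 24 h replicate 1 (-1.17, adjusted p 0.0621).

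Where both arms moved the same way, the difference lay in how far. ELOVL7, an elongase of long-chain fatty acids, was at 1.84 and 0.672 CPM untreated and 60.7 and 58.9 CPM with LTA at 4 h, and 0.213 and 0.441 CPM untreated and 0.254 and 0.349 CPM with LTA at 24 h. Only the LTA libraries at 4 h were high, and the difference was -5.64 ± 0.83 (adjusted p = 2.30e-04). The fall of its untreated level (-1.93) was lost without untreated 4 h replicate 1 or untreated 24 h replicate 1 (-1.43 to -1.09, adjusted p 0.107 to 0.218). TPPP, which promotes tubulin polymerisation, was at 13.4 and 9.9 CPM with LTA at 4 h and 0.508 and 0.349 CPM at 24 h, below the 3.57 and 5.14 CPM of untreated cells, with a difference of -3.85 ± 0.49 (adjusted p = 7.71e-05). Its fall in untreated cells (-0.91) was lost without untreated 4 h replicate 2 or untreated 24 h replicate 1 (-0.75 to -0.65, adjusted p 0.0953 to 0.162). The globin gene HBB was at 32 and 34.4 CPM untreated and 20.8 and 23.4 CPM with LTA at 4 h, and 0 and 0 CPM untreated and 0.593 and 0.976 CPM with LTA at 24 h. Untreated cells at 24 h had 0 counts, so the fall from 4 h was at least 359-fold in untreated cells and the response difference at least 3.71 against the floor. HBB belongs to a family of similar genes, and it was also at 0.491 and 0.155 CPM with 1 µg/ml LTA at 4 h, where the untreated and 10 µg/ml libraries were high. HBG2, also a red cell gene, had 0 counts in all 12 libraries. What sets the level of HBB was not tested.

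**Figure D3:**
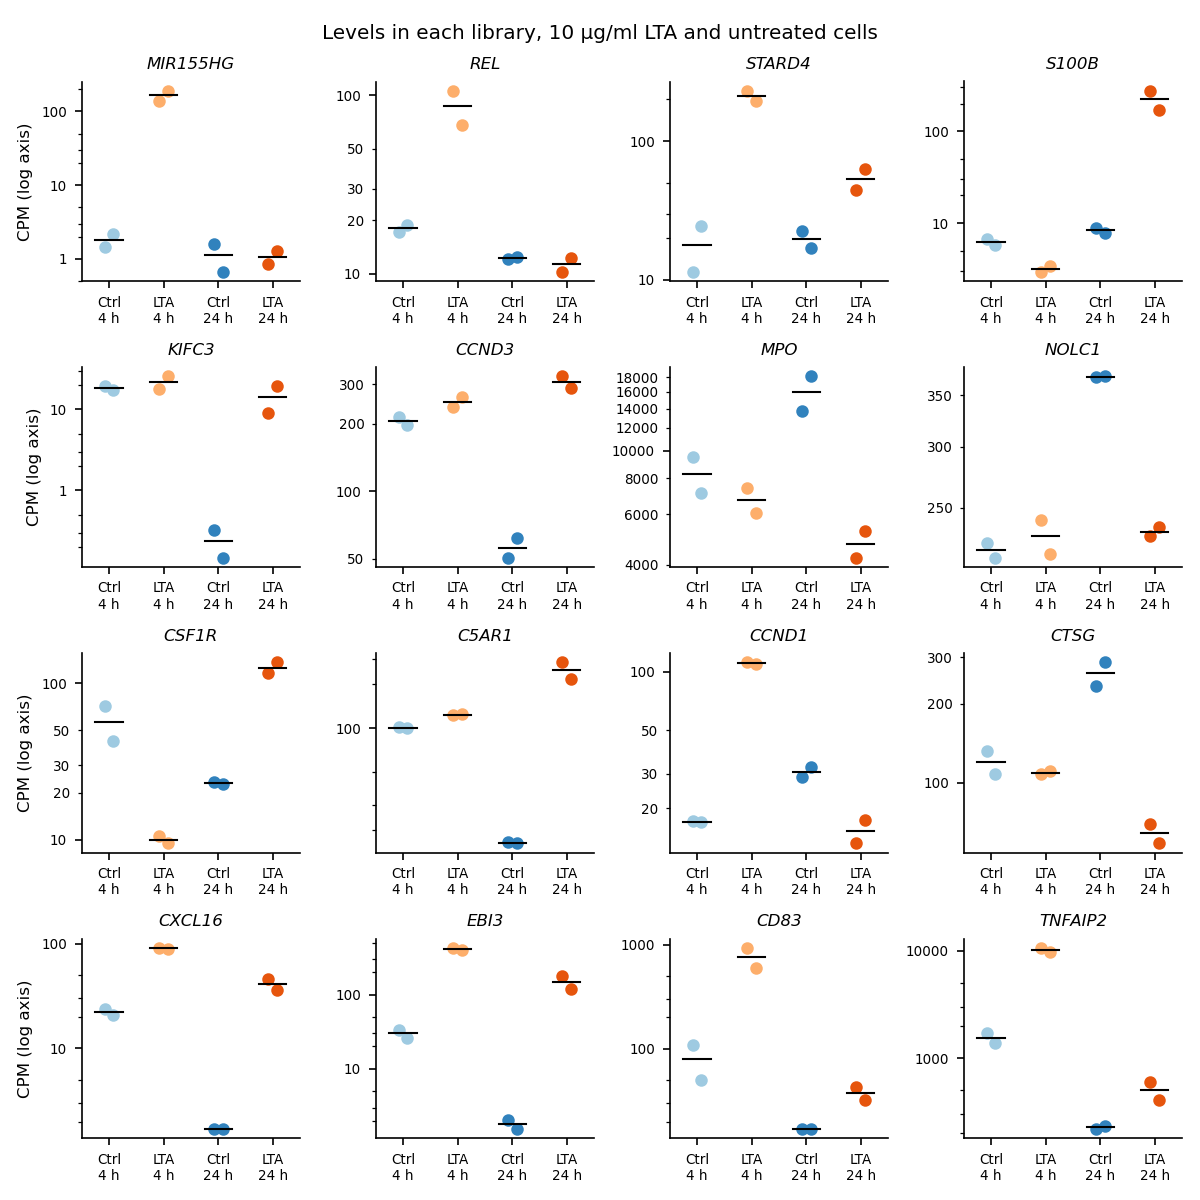
Points are CPM of single libraries on log axes, 2 per group, and lines their mean, for 16 genes in untreated dHL-60 (Ctrl) and with 10 µg/ml LTA at 4 h and 24 h. From top to bottom the rows show genes whose treated level moved, genes whose untreated level moved (KIFC3, CCND3, MPO and NOLC1), genes that moved in opposite directions in the 2 arms, and genes that fell in both.

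LTA still raised most NF-κB genes at 24 h. For most of them the response difference was not called, as for most tested genes (33.7% called). Of the 24 genes that encode NF-κB subunits and inhibitors or are early NF-κB targets, LTA raised 24 at 4 h (20% of all tested genes) and 22 at 24 h (23.6%), with median responses of 2.57 and 2.15. From 4 h to 24 h, 18 fell in untreated cells (23.1% of all tested genes) and 21 in treated cells (22.7%), with medians of -2.03 and -1.98, and 0 rose in either. The response difference was called more positive for 2 (19.7% of all tested genes) and more negative for 6 (14%). Its median was -0.19 against 0.04 over all genes. These shares of all tested genes are the ones to set beside the counts of the lists below. With a group at 0 counts set to its floor, the median of the untreated change was -1.92.

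REL, the c-Rel subunit (chromosome 2, 60881574 to 60931612), was at 17.2 and 18.8 CPM untreated and 106 and 68.2 CPM with LTA at 4 h, and 12.1 and 12.5 CPM untreated and 10.2 and 12.3 CPM with LTA at 24 h. The LTA libraries at 4 h were above all others and those at 24 h overlapped the untreated ones. Its difference was -2.39 ± 0.37 (adjusted p = 3.37e-04), with the caveat that 50.7% of its exon bases overlap another gene on the same strand. CD83, a surface marker of activated antigen-presenting cells, was at 109 and 49.8 CPM untreated and 931 and 591 CPM with LTA at 4 h, and 17.1 and 16.9 CPM untreated and 42.9 and 32.1 CPM with LTA at 24 h. The difference for CD83 was -2.13 ± 0.49 (adjusted p = 0.00489). TNFAIP2, a gene induced by tumour necrosis factor, was at 1728 and 1373 CPM untreated and 10642 and 9795 CPM with LTA at 4 h, and 218 and 236 CPM untreated and 599.8 and 407 CPM with LTA at 24 h. The difference for TNFAIP2 was -1.57 ± 0.34 (adjusted p = 0.00313). Both fell in both arms, by more in treated cells, and LTA libraries stayed above untreated ones at 24 h. The response of CD83 at 24 h (1.13) was lost without either untreated 24 h library or LTA 24 h replicate 1 (0.85 to 1.15, adjusted p 0.0828 to 0.139). The 2 genes called more positive were NFKBIZ and BCL3, which encode the inhibitor-like proteins IκBζ and BCL-3. NFKBIZ was at 33.4 and 20.8 CPM untreated and 404 and 343 CPM with LTA at 4 h, and 1.49 and 0.588 CPM untreated and 41.4 and 41.3 CPM with LTA at 24 h, and BCL3 at 108 and 59.6 CPM untreated and 253 and 318 CPM with LTA at 4 h, and 17.8 and 16.5 CPM untreated and 135 and 97.2 CPM with LTA at 24 h. Untreated cells at 24 h were the lowest group for both. The value of NFKBIZ was 2.32 without untreated 24 h replicate 1. Its call (1.43 ± 0.53, adjusted p = 0.0497) was lost without each library but untreated 4 h replicate 2 and untreated 24 h replicate 1 (0.99 to 1.53, adjusted p 0.0689 to 0.209) and with DESeq2 (adjusted p 0.0772), and that of BCL3 (0.99 ± 0.34, adjusted p = 0.0381) was lost without each library but untreated 4 h replicate 2, LTA 4 h replicate 2 and LTA 24 h replicate 2 (0.49 to 1.04, adjusted p 0.0867 to 0.212). Either or both were lost without each library but untreated 4 h replicate 2.

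The promoter windows of NFKBIZ and REL are shown because both genes carry an NF-κB element and their response differences have opposite signs. The element was searched on both strands as GGG and TTTCC with any 2 bases between them, in the 250 bases before each start in the RefSeq promoter table (GRCh38.p14), and capitals mark the match in either orientation. Only a stretch of the window that holds the match is printed.
NFKBIZ, chr3:101827740-101827839, plus strand: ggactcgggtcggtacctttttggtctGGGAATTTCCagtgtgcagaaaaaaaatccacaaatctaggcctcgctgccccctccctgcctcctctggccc
REL, chr2:60881474-60881573, plus strand: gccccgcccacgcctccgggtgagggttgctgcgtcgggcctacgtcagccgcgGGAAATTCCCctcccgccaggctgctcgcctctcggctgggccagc
It was found in 10 of the 21 genes of this list with an entry (47.6%) and in 1.73% of 35116 promoter entries. A gene was counted if any of its entries matched, so the 2 shares are in unlike units. Of the 10 genes, 1 was called more positive and 2 more negative. A match describes these letters and shows no binding.

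Cytokine genes that fell were more numerous in treated than in untreated cells. Of 26 listed, 23 were tested. The filter on low counts can keep a gene through the LTA groups alone, here and in the lists below. Counts of tested genes raised by LTA depend in part on it. LTA raised 20 of the 23 tested at 4 h (20% of all tested genes) and 16 at 24 h (23.6%). Median responses were 3.74 and 2.31. Treated levels fell for 21 and untreated levels for 13, against 22.7% and 23.1% of all tested genes. The list medians were -4.12 and -2.49. Between the times the response was more negative for 6 (14% of all tested genes) and more positive for 2 (19.7%), with a median of -1.14. With groups at 0 counts set to the floor, the medians were -1.13 for the difference, 2.09 for the response at 24 h, -2.08 for untreated cells and -4.06 for treated cells. IL12B, the p40 subunit of interleukins 12 and 23, was at 2.04 and 1.93 CPM untreated and 204 and 183 CPM with LTA at 4 h, and 0.106 and 0 CPM untreated and 0.254 and 0.418 CPM with LTA at 24 h. It stayed higher with LTA than without at 24 h by 5.57-fold (95% counting interval 1.15 to 53.02), on 2 counts in untreated cells. Its call (-4.29 ± 1.46, adjusted p = 0.0371) was lost without untreated 4 h replicate 1, LTA 4 h replicate 1, untreated 24 h replicate 1 or LTA 24 h replicate 1 (-4.33 to -1.51, adjusted p 0.0548 to 0.848). IL23A, the p19 subunit of interleukin 23, was at 17 and 18.8 CPM with LTA at 4 h and at most 1.95 CPM in the other 6 libraries, with a difference of -3.33 ± 0.73 (adjusted p = 0.00365), lost without untreated 24 h replicate 1 (-2.68, adjusted p 0.0942). More negative cytokines numbered 3 without untreated 24 h replicate 1.

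EBI3, a subunit of interleukins 27 and 35, went the other way. It was at 33.5 and 26.4 CPM untreated and 424 and 392 CPM with LTA at 4 h, and 2.08 and 1.54 CPM untreated and 178 and 118 CPM with LTA at 24 h. LTA libraries were far above untreated ones at both times, and the untreated level fell further (-4.01) than the treated one (-1.46), with a difference of 2.55 ± 0.36 (adjusted p = 1.72e-04). TGFB1, the other gene called more positive, was at 319.6 and 192 CPM untreated and 251 and 233 CPM with LTA at 4 h, and 121 and 156 CPM untreated and 269.6 and 233 CPM with LTA at 24 h, and its call (0.94 ± 0.32, adjusted p = 0.0354) was lost without each library but untreated 4 h replicate 2, untreated 24 h replicate 2 and LTA 24 h replicate 2 (0.52 to 0.96, adjusted p 0.083 to 0.182).

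Chemokine genes kept a response to LTA at 24 h. Of 24 listed chemokines, 19 passed the filter on low counts, which can keep a gene through the LTA groups alone. Among these 19, LTA raised 19 at 4 h and 18 at 24 h, with medians of 4.09 and 4.79 (4.68 at the floor). From 4 h to 24 h, 15 fell in untreated cells and 15 in treated cells, with medians of -3.23 and -2.31. The response difference was more positive for 5 (19.7% of all tested genes) and more negative for 0 (14%), with a median of 0.67. CXCL16, a membrane-bound chemokine that also acts as a scavenger receptor (chromosome 17, 4733533 to 4739928), was at 23.9 and 21 CPM untreated and 91.3 and 88.9 CPM with LTA at 4 h, and 1.7 and 1.69 CPM untreated and 45.7 and 36.1 CPM with LTA at 24 h. Untreated cells at 24 h were the lowest group, and its difference was 2.58 ± 0.26 (adjusted p = 1.26e-05). CCL8 had 0 counts in untreated cells at 24 h and 1.78 and 1.39 CPM with LTA, a response at least 16.9-fold higher and a difference of at least 1.22. Its call (adjusted p = 0.0404) was lost without each library but untreated 4 h replicate 2, LTA 4 h replicate 2 and LTA 24 h replicate 2 (4.20 to 4.47, adjusted p 0.0741 to 0.175). CCL7 was at 0.919 and 1.51 CPM untreated and 45.7 and 46 CPM with LTA at 4 h, and 0.16 and 0.0735 CPM untreated and 16.2 and 22 CPM with LTA at 24 h. The difference for CCL7 was 1.97 ± 0.60 (adjusted p = 0.0229), lost without untreated 4 h replicate 2 or either untreated 24 h library (1.54 to 2.63, adjusted p 0.0613 to 0.113). CCL5 was at 35.1 and 34.1 CPM untreated and 498 and 619 CPM with LTA at 4 h, and 12.7 and 11.9 CPM untreated and 318 and 314 CPM with LTA at 24 h. The difference for CCL5 was 0.67 ± 0.21 (adjusted p = 0.0278), lost without each library but untreated 4 h replicate 2 and LTA 4 h replicate 2 (0.50 to 0.72, adjusted p 0.0517 to 0.134). More positive chemokines numbered 1 without untreated 24 h replicate 2, 2 without replicate 1 of any of the 4 groups, 9 with the replicate number as a block and 10 with no filter on low counts.

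Of 31 immediate early genes and MAP kinase feedback regulators, LTA raised 21 at 4 h and 21 at 24 h, not all of them the same genes, with medians of 1.46 and 1.51 (1.42 at the floor), while 23 fell in untreated cells and 23 in treated cells, each with a median of -1.64. Members with a more positive response numbered 5 (19.7% of all tested genes) and more negative ones 5 (14%), with a median of 0.07. DUSP5, a nuclear phosphatase of ERK, was at 4.7 and 6.05 CPM untreated and 69 and 84.5 CPM with LTA at 4 h, and 4.05 and 4.04 CPM untreated and 13.5 and 11.2 CPM with LTA at 24 h. The difference for DUSP5 was -2.23 ± 0.27 (adjusted p = 6.04e-05). FOSL1, the AP-1 subunit FRA-1, went from 23.4 and 33.4 CPM to 3.9 and 3.14 CPM with LTA, with a difference of -2.15 ± 0.43 (adjusted p = 0.00213). KLF4, a transcription factor of myeloid maturation, was at 9.91 and 9.16 CPM untreated and 7.05 and 5.79 CPM with LTA at 4 h, and 2.24 and 3.31 CPM untreated and 26.1 and 18.5 CPM with LTA at 24 h, falling by 1.80 ± 0.30 without LTA and rising by 1.79 ± 0.27 with it, a difference of 3.59 ± 0.40 (adjusted p = 2.86e-05). JUN was at 244 and 202 CPM untreated and 436 and 331 CPM with LTA at 4 h, and 73.9 and 77.5 CPM untreated and 295 and 271 CPM with LTA at 24 h. The untreated libraries at 24 h were the low ones, and the difference was 1.12 ± 0.27 (adjusted p = 0.0071). More negative genes numbered 3 without untreated 24 h replicate 1 or LTA 4 h replicate 1 and 8 without untreated 4 h replicate 1, and more positive genes 2 without untreated 24 h replicate 1 and 3 without LTA 4 h replicate 1 or either LTA 24 h library.

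The receptors of LTA themselves diverged. TLR2 (chromosome 4, 153684280 to 153710637) was at 194 and 201 CPM untreated and 1330.4 and 1227 CPM with LTA at 4 h, and 63.8 and 48.4 CPM untreated and 223 and 232 CPM with LTA at 24 h. It was higher with LTA at both times, with no overlap, and fell in both arms. Its response was 2.69 at 4 h and 2.02 at 24 h, and the call of the difference (-0.68 ± 0.22, adjusted p = 0.0316) was lost without each library but untreated 4 h replicate 2, LTA 4 h replicate 2 and untreated 24 h replicate 2 (-0.71 to -0.46, adjusted p 0.0567 to 0.171). The coreceptor CD14 (chromosome 5, 140631732 to 140633701) was at 576 and 434 CPM untreated and 641 and 732 CPM with LTA at 4 h, and 145 and 136 CPM untreated and 1375 and 1232 CPM with LTA at 24 h. It fell by 1.84 ± 0.16 in untreated cells and rose by 0.93 ± 0.15 in treated cells, a difference of 2.77 ± 0.22 (adjusted p = 2.33e-06). The response of CD14 at 4 h (0.44) was lost without untreated 4 h replicate 2 or LTA 4 h replicate 2 (0.25 to 0.34, adjusted p 0.187 to 0.224) and with the 8 libraries alone or upper-quartile scaling (adjusted p 0.0505 to 0.0974). TLR6 (chromosome 4, 38822897 to 38868390) was at 31 and 42.2 CPM untreated and 16.3 and 16.2 CPM with LTA at 4 h, and 13.9 and 12 CPM untreated and 25.6 and 31.9 CPM with LTA at 24 h. LTA libraries were below untreated ones at 4 h and above them at 24 h, and the difference was 2.33 ± 0.28 (adjusted p = 5.76e-05). TLR1 (chromosome 4, 38787569 to 38805644) was at 25.5 and 25 CPM untreated and 24.7 and 22.7 CPM with LTA at 4 h, and 13.8 and 11.8 CPM untreated and 28 and 40.3 CPM with LTA at 24 h. The difference for TLR1 was 1.51 ± 0.28 (adjusted p = 0.00114). The adaptor MYD88 was raised by 1.27 ± 0.15 at 4 h and 1.29 ± 0.15 at 24 h and its response difference was not called, at 0.03 ± 0.20 (adjusted p = 0.937).

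Over the list of Toll-like receptor signalling, 24 of 29 genes were tested. The difference was more positive for 7 and more negative for 7, with a median of -0.01. Among the latter, MAP3K8, a kinase upstream of ERK, was at 66.4 and 43.6 CPM untreated and 693 and 533 CPM with LTA at 4 h, and 19.2 and 16 CPM untreated and 29.9 and 32.6 CPM with LTA at 24 h. The difference for MAP3K8 was -2.66 ± 0.32 (adjusted p = 5.25e-05). TRAF3, a ubiquitin ligase adaptor, went from 229 and 202 CPM to 84.4 and 80.0 CPM with LTA, with a difference of -1.19 ± 0.23 (adjusted p = 0.0019). Of 13 inflammasome genes, 6 were more positive and 2 more negative, with a median of 1.00. NLRC4, a sensor adaptor for bacterial flagellin, was at 30.5 and 28.7 CPM untreated and 19.1 and 15.6 CPM with LTA at 4 h, and 14.8 and 14.2 CPM untreated and 60.9 and 53.1 CPM with LTA at 24 h, lower with LTA at 4 h and higher at 24 h, with a difference of 2.75 ± 0.23 (adjusted p = 3.65e-06). NLRP3, the sensor of the canonical inflammasome, was at 20.9 and 11.8 CPM untreated and 142 and 114 CPM with LTA at 4 h, and 9.58 and 10.2 CPM untreated and 14.9 and 12 CPM with LTA at 24 h. Its LTA libraries at 4 h stood above the other 6, and the difference was -2.54 ± 0.31 (adjusted p = 5.83e-05). NLRP1, another sensor, was lowest with LTA at 24 h, at 3.9 and 6.83 CPM against 27.9 and 31.6 CPM in untreated cells, with a difference of -2.18 ± 0.35 (adjusted p = 4.19e-04).

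Interferon-stimulated genes were raised by LTA at 24 h and mostly not at 4 h. Of 36 listed genes, 27 were tested. LTA raised 2 and lowered 6 at 4 h (21.3% of all tested genes were lower), with a median of -0.40, and raised 21 and lowered 0 at 24 h, with a median of 1.21. Between the times the response was more positive for 19 and more negative for 1, with a median of 1.62. For 10 of these 20 genes only the untreated change was called, for 6 only the treated change, and 4 moved in opposite directions. Untreated levels fell for 16, with a median of -1.07, and treated levels rose for 9 and fell for 2 (24% of all tested genes rose), with a median of 0.52. More positive members numbered 12 without untreated 24 h replicate 1.

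IFITM1, which blocks virus entry at membranes (chromosome 11, 314040 to 315272), was at 2.14 and 2.1 CPM untreated and 0.588 and 0.747 CPM with LTA at 4 h, and 1.22 and 1.4 CPM untreated and 8.05 and 11.8 CPM with LTA at 24 h. LTA libraries were the lowest group at 4 h and the highest at 24 h, and the difference was 4.58 ± 0.52 (adjusted p = 3.55e-05). The response of IFITM1 at 4 h (-1.65) was lost without LTA 4 h replicate 1 (-1.49, adjusted p 0.0645). IFIT1, which binds foreign 5′ RNA ends, was low throughout, at 0.511 and 0.84 CPM untreated and 0.196 and 0.187 CPM with LTA at 4 h, and 0.16 and 0.294 CPM untreated and 2.54 and 1.6 CPM with LTA at 24 h. The difference for IFIT1 was 4.97 ± 0.93 (adjusted p = 0.00132). IFIT2 had a difference of 4.77 ± 1.11 (adjusted p = 0.00528), lost without untreated 4 h replicate 2 (2.99, adjusted p 0.0725). The 1 gene called more negative was IFIH1, the RNA sensor MDA5 (chromosome 2, 162267074 to 162318684), at 17.4 and 16 CPM untreated and 46.5 and 48.7 CPM with LTA at 4 h, and 15.8 and 13.7 CPM untreated and 18.2 and 21 CPM with LTA at 24 h. Its LTA libraries at 4 h were above all others, and the difference was -1.11 ± 0.21 (adjusted p = 0.00145).

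The promoter windows of IFITM1, IFIT1 and IFIH1 are shown because each holds an interferon element and IFIH1 was the only member with a more negative response. The element was searched on both strands as GAAA and GAAA with any 2 bases between them, in the 250 bases before each start, and capitals mark matches in either orientation, which overlap in IFIH1.
IFITM1, chr11:313940-314039, plus strand: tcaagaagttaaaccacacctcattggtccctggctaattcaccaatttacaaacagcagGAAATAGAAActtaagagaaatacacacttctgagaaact
IFIT1, chr10:89392462-89392561, plus strand: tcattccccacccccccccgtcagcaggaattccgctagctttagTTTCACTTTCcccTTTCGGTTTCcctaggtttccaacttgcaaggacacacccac
IFIH1, chr2:162318789-162318888, minus strand: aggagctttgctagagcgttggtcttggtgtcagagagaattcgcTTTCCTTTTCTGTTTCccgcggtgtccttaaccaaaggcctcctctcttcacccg
It was found in 19 of the 28 genes of this list with an entry in the RefSeq promoter table (67.9%) and in 3.02% of 35116 promoter entries. Here too the first share is by gene, with a match in any entry, and the second by entry. Among the 19, some of which were not tested, 9 were called more positive and 1 more negative. Over the whole list, 19 of the 27 tested genes were more positive.

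Genes of mature neutrophils mostly fell in untreated cells, and part of them rose in treated ones. Of 27 tested, 23 fell in untreated cells and 0 rose, with a median of -1.77, while 13 rose and 5 fell in treated cells, with a median of 0.74. The response difference was more positive for 18 and more negative for 0, with a median of 1.9, and 13 of the 18 moved in opposite directions. Lower library first, their summed level at 4 h was 6692 and 8838 CPM untreated and 9054 and 9670 CPM with LTA. At 24 h it was 2678 and 2704 CPM untreated and 16240 and 17470 CPM with LTA. MMP9, gelatinase B of the tertiary granules (chromosome 20, 46008908 to 46016561), was at 113 and 159 CPM untreated and 176 and 296 CPM with LTA at 4 h, and 81.4 and 51 CPM untreated and 2247 and 2518 CPM with LTA at 24 h. The LTA libraries at 24 h were the highest by a wide margin, and the difference was 4.37 ± 0.43 (adjusted p = 1.07e-05). In the annotation 18.4% of its exon bases overlap another gene. CEACAM3, a receptor for the uptake of bacteria, was at 5.72 and 6.72 CPM untreated and 14 and 18.5 CPM with LTA at 4 h, and 1.28 and 1.69 CPM untreated and 76.1 and 56.5 CPM with LTA at 24 h. The difference for CEACAM3 was 4.11 ± 0.41 (adjusted p = 1.20e-05). The integrin ITGAM (CD11b, chromosome 16, 31259975 to 31332877) was at 127 and 121 CPM untreated and 96.6 and 105 CPM with LTA at 4 h, and 64.2 and 65.6 CPM untreated and 229.9 and 256 CPM with LTA at 24 h. LTA libraries were lower than untreated ones at 4 h by a margin that was not called (-0.30) and higher at 24 h, with a difference of 2.20 ± 0.18 (adjusted p = 2.39e-06).

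Promyelocyte genes were mostly lower with LTA at 24 h. Of the 16 tested, 0 had a more positive response at 24 h and 7 had a more negative one, with a median of -0.67. LTA lowered 8 and raised 1 at 4 h and lowered 14 and raised 0 at 24 h (19% of all tested genes were lower), with medians of -0.63 and -1.40. In untreated cells 6 rose and 1 fell (17.8% of all tested genes rose), and in treated cells 1 rose and 8 fell. With the lower library first, their summed level went from 11540 and 14880 CPM to 20260 and 25960 CPM in untreated cells. It went from 9110 and 9939 CPM to 6416 and 7742 CPM with LTA. Most of each sum was MPO, and the median change by gene was 0.25 in untreated cells and -0.51 in treated cells. MPO, myeloperoxidase of the primary granules (chromosome 17, 58269855 to 58280935), was at 9510.1 and 7117 CPM untreated and 7429 and 6042 CPM with LTA at 4 h, and 13738 and 18122 CPM untreated and 4234 and 5239 CPM with LTA at 24 h. The 2 arms overlapped at 4 h and were apart at 24 h, and the difference was -1.45 ± 0.31 (adjusted p = 0.00303), beside a rise of 0.94 ± 0.22 in untreated cells and a treated change of -0.51 that was not called. CTSG, cathepsin G, was at 132 and 108 CPM untreated and 108 and 111 CPM with LTA at 4 h, and 234 and 288 CPM untreated and 69.9 and 58.9 CPM with LTA at 24 h. The difference for CTSG was -1.89 ± 0.24 (adjusted p = 7.20e-05). PRTN3, proteinase 3, was at 148 and 139 CPM untreated and 44.7 and 84.7 CPM with LTA at 4 h, and 854 and 1123 CPM untreated and 88.3 and 119 CPM with LTA at 24 h. The difference for PRTN3 was -2.10 ± 0.52 (adjusted p = 0.00771), and ELANE, neutrophil elastase, went from 664 and 920.0 CPM to 308 and 412 CPM with LTA, with a difference of -1.73 ± 0.40 (adjusted p = 0.00532). Whether these changes come from a shift in the makeup of the cultures was not tested.

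Genes of the phagocyte NADPH oxidase, the enzyme of the respiratory burst, mostly fell in untreated cells. Of 8 tested, 4 had a more positive response at 24 h and 0 a more negative one, with a median of 0.76. In untreated cells 7 fell and 0 rose, with a median of -0.99. In treated cells 4 fell and 1 rose, with a median of -0.50. NCF1, the p47phox subunit, has near-identical pseudogenes and is uncertain, with a difference of 1.72 ± 0.43 (adjusted p = 0.00762). RAC2, the oxidase GTPase, was at 1081 and 747 CPM untreated and 1130.2 and 1152 CPM with LTA at 4 h, and 387 and 413 CPM untreated and 1148 and 921 CPM with LTA at 24 h. The difference for RAC2 was 1.05 ± 0.26 (adjusted p = 0.00776), and its untreated level at 24 h was the low one.

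Markers of other cell types were checked beside these lists. With the lower library first, the macrophage list summed at 4 h to 3645 and 4204 CPM untreated and 5721 and 6482 CPM with LTA. At 24 h it summed to 4479 and 5439 CPM untreated and 2847 and 3003 CPM with LTA. LYZ made up most of each sum. LYZ, lysozyme, was at 3966 and 3444 CPM untreated and 5713 and 4907 CPM with LTA at 4 h, and 5353 and 4392 CPM untreated and 2263 and 2374 CPM with LTA at 24 h. The difference for LYZ was -1.59 ± 0.22 (adjusted p = 1.52e-04), and its response at 4 h (0.52) was lost without untreated 4 h replicate 2 or LTA 4 h replicate 1 (0.41 to 0.42, adjusted p 0.0724 to 0.139) and with upper-quartile scaling (adjusted p 0.0503). In the annotation 34% of its exon bases overlap another gene. By single genes the macrophage list went the other way from its sum at 24 h. Of 18 listed, 10 were tested. Of the 10 tested, LTA raised 7 and lowered 1 at 4 h and raised 9 and lowered 1 at 24 h, with medians of 1.40 and 2.90. In treated cells 6 rose and 4 fell, in untreated cells 1 rose and 6 fell, and 4 were more positive and 1 more negative. The 11 lymphocyte markers in the table summed to at most 7.393 CPM in these groups, with CD3G at 0. The red cell and platelet list summed to at most 39.07 CPM, most of it HBB at 4 h. The eosinophil and basophil list summed to 36.43 to 67 CPM in 3 of the 4 groups and to 59.6 and 111 CPM with LTA at 24 h. The part of these cell types in the response difference was not tested.

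Of 14 tested genes of costimulation and antigen presentation, 8 had a more positive response at 24 h and 0 a more negative one, with a median of 2.17. CD1D, which presents lipid antigens (chromosome 1, 158178030 to 158186427), was at 22.9 and 23.7 CPM untreated and 1.18 and 0.747 CPM with LTA at 4 h, and 12 and 11.7 CPM untreated and 11.2 and 11 CPM with LTA at 24 h. LTA libraries at 4 h were below the other 6, and at 24 h the LTA libraries were just below the untreated ones. The response was -4.59 at 4 h and -0.09 at 24 h, a difference of 4.50 ± 0.30 (adjusted p = 7.18e-07). CD1A, another lipid-presenting molecule, was at 1.53 and 1.76 CPM untreated and 0.0979 and 0.0934 CPM with LTA at 4 h, and 1.92 and 2.2 CPM untreated and 5.08 and 3.97 CPM with LTA at 24 h. On 2 counts with LTA at 4 h, the treated level of CD1A rose 46.8-fold (95% counting interval 12.7 to 391), and the fitted difference was 5.11 ± 0.66 (adjusted p = 7.96e-05). SLAMF8, a receptor of the SLAM family, was at 1.53 and 1.51 CPM untreated and 3.33 and 7.01 CPM with LTA at 4 h, and 0.586 and 0.147 CPM untreated and 82.7 and 46.4 CPM with LTA at 24 h, highest with LTA at 24 h, with a difference of 5.54 ± 0.92 (adjusted p = 5.91e-04). CD40, a receptor for T cell help, was at 7.35 and 6.64 CPM untreated and 75.2 and 80.2 CPM with LTA at 4 h, and 0.586 and 0.588 CPM untreated and 14.3 and 13.1 CPM with LTA at 24 h. It was raised at both times, and the call of its difference (1.05 ± 0.35, adjusted p = 0.0341) was lost without each library but untreated 4 h replicate 2 and LTA 24 h replicate 2 (0.92 to 1.08, adjusted p 0.0512 to 0.141) and with DESeq2 (adjusted p 0.0567).

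Genes of cholesterol synthesis and uptake had most of their called changes from 4 h to 24 h in treated cells. LTA raised 17 of 24 at 4 h and 23 at 24 h and lowered 0 at either time, with medians of 1.16 and 1.51. In treated cells 13 rose and 2 fell (median 0.81), and in untreated cells 1 rose and 1 fell (median 0.08). Members with a more positive response numbered 9 and those with a more negative one 2, against 19.7% and 14% of all tested genes. The median was 0.57, and all 11 had a called change in treated cells only. More positive genes numbered 5 without LTA 4 h replicate 1. EBP, a sterol isomerase (chromosome X, 48521808 to 48528716), was at 51.2 and 46.7 CPM untreated and 39.2 and 63 CPM with LTA at 4 h, and 49.1 and 49.3 CPM untreated and 155 and 138 CPM with LTA at 24 h. The LTA libraries at 24 h were above the other 6, and the difference was 1.51 ± 0.27 (adjusted p = 0.00107). TM7SF2, a sterol reductase, went from 12.1 and 15.4 CPM to 42.5 and 36.9 CPM with LTA, with a difference of 1.64 ± 0.28 (adjusted p = 7.36e-04). ACAT2, a thiolase at the entry of the pathway, had a difference of 1.27 ± 0.24 (adjusted p = 0.0015), but 69.6% of its exon bases overlap genes on the other strand. The 2 more negative genes belong to the regulation and transport of sterol. STARD4, a cytosolic sterol carrier (chromosome 5, 111496033 to 111512535), was at 11.3 and 24.4 CPM untreated and 232 and 194 CPM with LTA at 4 h, and 22.3 and 16.9 CPM untreated and 44.5 and 62.5 CPM with LTA at 24 h. The difference for STARD4 was -2.12 ± 0.38 (adjusted p = 9.92e-04). INSIG1, which holds back the sterol sensor SCAP, was at 146 and 251 CPM untreated and 1318 and 1528 CPM with LTA at 4 h, and 192 and 171 CPM untreated and 439 and 592 CPM with LTA at 24 h. The difference for INSIG1 was -1.34 ± 0.35 (adjusted p = 0.0102). Both were highest with LTA at 4 h and stayed above untreated cells at 24 h.

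Among 8 tested genes of sterol efflux and LXR targets, 5 were more positive and 1 more negative. ABCA1, the cholesterol exporter (chromosome 9, 104781006 to 104928155), was at 7.35 and 11 CPM untreated and 34.6 and 36.6 CPM with LTA at 4 h, and 9.1 and 7.35 CPM untreated and 3.05 and 7.95 CPM with LTA at 24 h. LTA libraries were the highest group at 4 h and overlapped the untreated ones at 24 h, with a difference of -2.50 ± 0.47 (adjusted p = 0.00127). NR1H3, the receptor LXRα, had a difference of 1.42 ± 0.45 (adjusted p = 0.0269), lost without each library but untreated 4 h replicate 2 and untreated 24 h replicate 2 (0.92 to 1.47, adjusted p 0.0598 to 0.138) and with DESeq2 (adjusted p 0.0662). More positive genes numbered 2 to 3 without each library but untreated 4 h replicate 2 and untreated 24 h replicate 2, and 3 with DESeq2.

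Of 30 tested genes of glycolysis and hypoxia, 16 had a more positive response at 24 h and 2 a more negative one. The shares over all tested genes were 19.7% and 14%, and the list median was 0.59. LTA raised 11 and lowered 3 at 4 h and raised 25 and lowered 0 at 24 h. PFKFB4, which sets the level of a glycolytic activator (chromosome 3, 48517684 to 48563136), was at 5.21 and 5.97 CPM untreated and 1.66 and 2.71 CPM with LTA at 4 h, and 12.3 and 7.79 CPM untreated and 46.1 and 55 CPM with LTA at 24 h. LTA libraries were the lowest group at 4 h and the highest at 24 h, with a difference of 3.67 ± 0.40 (adjusted p = 2.29e-05). Its response at 4 h (-1.35) was lost without LTA 4 h replicate 1 (-1.05, adjusted p 0.063). ALDOC and ENO2, an aldolase and an enolase, were at 79.6 and 97.9 and 20.3 and 40.4 CPM in the LTA libraries at 24 h and at most 12.6 and 6.81 CPM in the other 6. Their differences were 3.61 ± 0.65 (adjusted p = 0.00101) and 3.60 ± 0.61 (adjusted p = 6.64e-04), and 14.5% of the exon bases of ALDOC overlap another gene. The 2 more negative genes were HIF1A, the oxygen-regulated transcription factor, and PFKFB3, its glycolytic target. HIF1A was at 31.1 and 39.7 CPM untreated and 209 and 155 CPM with LTA at 4 h, and 29.2 and 24.2 CPM untreated and 35.6 and 49.8 CPM with LTA at 24 h. The difference for HIF1A was -1.68 ± 0.30 (adjusted p = 8.84e-04). PFKFB3 was at 35.7 and 42.1 CPM untreated and 209 and 279 CPM with LTA at 4 h, and 26.6 and 27 CPM untreated and 67.7 and 73 CPM with LTA at 24 h. The difference for PFKFB3 was -1.25 ± 0.23 (adjusted p = 0.00122). Both were highest with LTA at 4 h.

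Most ribosome biogenesis genes rose in untreated cells, and fewer rose in treated ones. Of 28 tested, 24 rose in untreated cells (17.8% of all tested genes) and 16 in treated cells (24%). The medians were 0.75 and 0.38, and 0 fell in either. Between the times the response was more negative for 9 (14% of all tested genes) and more positive for 0 (19.7%), with a median of -0.46. NOLC1, a nucleolar chaperone (chromosome 10, 102152389 to 102163870), was at 225 and 215 CPM untreated and 241 and 218 CPM with LTA at 4 h, and 369 and 370.3 CPM untreated and 229.7 and 236 CPM with LTA at 24 h. Untreated cells at 24 h were above the other 6 libraries, which lay close together, and the difference was -0.73 ± 0.17 (adjusted p = 0.0045). GAR1, of the H/ACA small nucleolar complex, had a difference of -0.92 ± 0.23 (adjusted p = 0.00724) and URB2, a nucleolar protein, a difference of -0.91 ± 0.24 (adjusted p = 0.0121). For both, the untreated libraries at 24 h were again the highest. Heat shock proteins and chaperonins had 7 of 19 more negative (14% of all tested genes) and 0 more positive (19.7%). In untreated cells 16 rose and 0 fell (17.8% of all tested genes rose). In treated cells 9 rose and 1 fell (24% of all tested genes rose), and the medians were 0.74 and 0.36. HSPD1, the mitochondrial chaperonin HSP60, was at 243 and 264 CPM untreated and 275 and 288 CPM with LTA at 4 h, and 737 and 607 CPM untreated and 383 and 426 CPM with LTA at 24 h. The difference for HSPD1 was -0.88 ± 0.22 (adjusted p = 0.00796), and its treated rise of 0.52 was lost without either LTA 4 h library or LTA 24 h replicate 2 (0.45 to 0.54, adjusted p 0.0587 to 0.106). DNAJA1, a cochaperone, went from 274 and 249.9 CPM to 173 and 164 CPM with LTA, with a difference of -1.07 ± 0.17 (adjusted p = 3.83e-04).

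Genes of the unfolded protein and amino acid response had 7 of 24 more negative and 1 more positive responses, with a median of -0.37. In treated cells 15 fell and 1 rose (median -0.42), and in untreated cells 9 fell and 5 rose (median -0.03). XBP1, the transcription factor of the unfolded protein response (chromosome 22, 28794560 to 28800569), was at 339 and 296 CPM untreated and 886 and 881 CPM with LTA at 4 h, and 388 and 333 CPM untreated and 258 and 267 CPM with LTA at 24 h. LTA libraries were above untreated ones at 4 h and below them at 24 h, and the difference was -1.93 ± 0.21 (adjusted p = 2.13e-05). The response of XBP1 at 24 h (-0.46) was lost without untreated 24 h replicate 1 or either LTA 24 h library (-0.49 to -0.34, adjusted p 0.0651 to 0.167). HSP90B1, the chaperone GRP94, was at 709 and 716 CPM untreated and 1021 and 1066 CPM with LTA at 4 h, and 1209 and 1182 CPM untreated and 641 and 798 CPM with LTA at 24 h. The difference for HSP90B1 was -1.28 ± 0.25 (adjusted p = 0.00161). Its response at 4 h (0.55) was lost without each library (0.51 to 0.58, adjusted p 0.0575 to 0.0989) and with upper-quartile scaling (adjusted p 0.0778). CHAC1, which degrades glutathione, was the gene called more positive, at 1.23 and 1.09 CPM untreated and 2.25 and 1.87 CPM with LTA at 4 h, and 0.266 and 0.294 CPM untreated and 4.49 and 2.51 CPM with LTA at 24 h. The difference for CHAC1 was 2.76 ± 0.65 (adjusted p = 0.00582). More positive genes numbered 2 without untreated 4 h replicate 2 or LTA 24 h replicate 1 and 3 with upper-quartile scaling.

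Genes of survival and death were mixed, with 8 of 31 more positive and 12 more negative and a median of -0.08 (-0.11 at the floor). Over all tested genes, 19.7% were more positive and 14% more negative. CDKN1A, the cell cycle inhibitor p21 (chromosome 6, 36676463 to 36687332), was at 36.5 and 28.1 CPM untreated and 238 and 237 CPM with LTA at 4 h, and 2.71 and 2.72 CPM untreated and 109 and 89.2 CPM with LTA at 24 h. LTA libraries were above untreated ones at both times, and the untreated level fell further, with a difference of 2.30 ± 0.25 (adjusted p = 2.22e-05). PIM1, a survival kinase, was at 66 and 61.8 CPM untreated and 271 and 327 CPM with LTA at 4 h, and 14.9 and 14 CPM untreated and 182 and 200.3 CPM with LTA at 24 h. The difference for PIM1 was 1.49 ± 0.22 (adjusted p = 2.48e-04). On the other side, SERPINB2, plasminogen activator inhibitor 2, was at 15.4 and 20.3 CPM untreated and 414 and 426 CPM with LTA at 4 h, and 21.3 and 18 CPM untreated and 96.2 and 113 CPM with LTA at 24 h. The difference for SERPINB2 was -2.14 ± 0.25 (adjusted p = 3.64e-05). PMAIP1, the death factor NOXA, went from 55.7 and 41.6 CPM to 5.76 and 8.57 CPM with LTA, with a difference of -2.04 ± 0.44 (adjusted p = 0.00311). BCL2L1, which encodes BCL-XL, had a difference of -1.74 ± 0.30 (adjusted p = 7.24e-04), with 42.8% of its exon bases overlapping another gene on the other strand. More positive genes numbered 5 without each library but untreated 4 h replicate 2 and LTA 4 h replicate 2, with DESeq2 and with the 8 libraries alone.

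Cell cycle genes were more positive for 13 of 33 and more negative for 3, with a median of 0.29. PLK1, a mitotic kinase (chromosome 16, 23678889 to 23690367), was at 54.4 and 49 CPM untreated and 49.8 and 54.1 CPM with LTA at 4 h, and 23.7 and 35 CPM untreated and 91.5 and 71.2 CPM with LTA at 24 h. The difference for PLK1 was 1.47 ± 0.25 (adjusted p = 7.33e-04), and AURKB, another, went from 28.1 and 25 CPM to 10.3 and 12.4 CPM in untreated cells, with a difference of 1.45 ± 0.25 (adjusted p = 7.47e-04). Untreated libraries at 24 h were the lowest for both genes. Among D cyclins the signs differed: CCND3 was more positive and CCND1 more negative (above), and CCND2 was at 58.8 and 67.3 CPM untreated and 118 and 155 CPM with LTA at 4 h, and 85.7 and 69.4 CPM untreated and 50.3 and 57 CPM with LTA at 24 h. The difference for CCND2 was -1.65 ± 0.30 (adjusted p = 0.00108). In the annotation 15.3% of the exon bases of CCND2 overlap another gene on the same strand.

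Metallothionein and antioxidant genes had 8 of 17 more positive and 2 more negative, with a median of 0.69. MT1F, a metal-binding metallothionein with close relatives, so that its reads may be shared, was at 3.57 and 4.12 CPM untreated and 2.35 and 4.67 CPM with LTA at 4 h, and 0.319 and 0.441 CPM untreated and 24.8 and 20.3 CPM with LTA at 24 h. LTA libraries at 24 h were the highest and untreated ones the lowest, with a difference of 6.01 ± 0.51 (adjusted p = 3.50e-06). MT2A had a difference of 2.56 ± 0.85 (adjusted p = 0.0339), a value of 1.36 without untreated 4 h replicate 2 and 3.92 without LTA 4 h replicate 2, and its call was lost without each library but untreated 4 h replicate 1, LTA 4 h replicate 2 and LTA 24 h replicate 2 (1.36 to 2.60, adjusted p 0.0771 to 0.194) and with DESeq2 (adjusted p 0.0782). TXNRD1, thioredoxin reductase (chromosome 12, 104215779 to 104350307), was at 109 and 111 CPM untreated and 290.5 and 246 CPM with LTA at 4 h, and 126 and 118 CPM untreated and 122 and 125 CPM with LTA at 24 h. Only the LTA libraries at 4 h were high, with a difference of -1.27 ± 0.18 (adjusted p = 1.70e-04). GCLM, of glutathione synthesis, went from 36.8 and 34.7 CPM to 7.62 and 11.6 CPM with LTA, with a difference of -1.77 ± 0.44 (adjusted p = 0.00772). More positive genes numbered 4 without untreated 24 h replicate 1, LTA 4 h replicate 1 or LTA 24 h replicate 1.

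Of 20 tested reference genes often used to normalise expression, 2 were more positive and 4 more negative (19.7% and 14% of all tested genes), with a median of -0.18. The 2 became 1 without replicate 1 of any of the 4 groups, without LTA 24 h replicate 2, with DESeq2 and with no filter on low counts. ACTB, β-actin, was at 19457 and 15846 CPM untreated and 24744 and 26749 CPM with LTA at 4 h, and 10420.0 and 10559 CPM untreated and 30696 and 29092 CPM with LTA at 24 h. LTA libraries were above untreated ones at both times, and the difference was 0.97 ± 0.22 (adjusted p = 0.00509). The untreated level fell by 0.75 ± 0.16. The response of ACTB at 4 h (0.54) was lost without untreated 4 h replicate 2 or LTA 4 h replicate 2 (0.40 to 0.48, adjusted p 0.0506 to 0.0857). TFRC, the transferrin receptor, was at 342 and 320.2 CPM untreated and 660.2 and 502 CPM with LTA at 4 h, and 735 and 606 CPM untreated and 462 and 552 CPM with LTA at 24 h. The difference for TFRC was -1.21 ± 0.23 (adjusted p = 0.0013). KIT, the stem cell factor receptor, and the transcription factor MYC were lower with LTA at both times, and their response differences were not called, at -0.48 ± 0.28 (adjusted p = 0.206) and 0.37 ± 0.24 (adjusted p = 0.252).

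**Figure D4:**
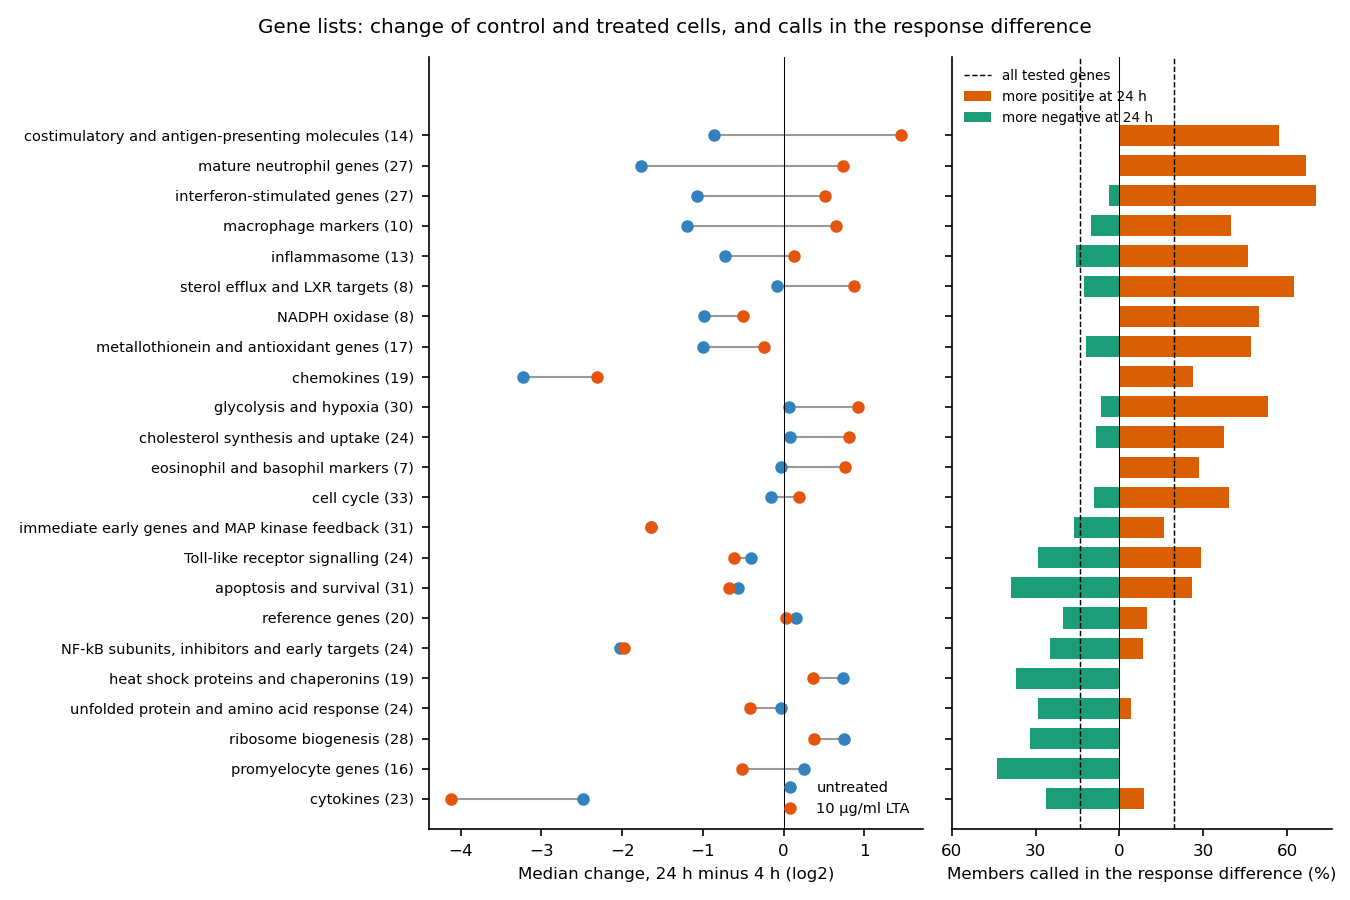
Left, median log2 change from 4 h to 24 h of each gene list in untreated dHL-60 (blue) and with 10 µg/ml LTA (orange), for lists with at least 7 genes tested (number in parentheses). Right, percentage of tested members called more positive or more negative in the response difference, with dashed lines at 19.7% and 14%, the shares of all tested genes.

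The 1 µg/ml libraries allow the difference between times to be compared between doses. The contrast (10 minus 1 µg/ml at 24 h) minus (10 minus 1 µg/ml at 4 h), in which the untreated libraries cancel, was called for 22 genes, 0.185% of those tested. It was positive for 21 (0.177%) and negative for 1 (0.00843%), while 1367 genes had an unadjusted p under 0.05. Without LTA 4 h replicate 1 the positive calls numbered 0, so each positive call named below is lost there, and without 1 µg/ml 24 h replicate 2 they numbered 1. DESeq2 called 148 positive and 12 negative genes, the fit with no filter on low counts 308 and 87, and the fit with the replicate block 89 and 3. The positive calls numbered 8 to 11 without LTA 24 h replicate 1, 1 µg/ml 4 h replicate 1 or 1 µg/ml 24 h replicate 1, and 50 without LTA 24 h replicate 2, where the negative calls numbered 8.

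For 3 of the genes with large positive values, each library at 24 h was below each at 4 h at both doses, and at 24 h the high dose was above the low one. CCL20, a chemokine (chromosome 2, 227813842 to 227817556), was at 436 and 498 CPM at 1 µg/ml and 505 and 649.7 CPM at 10 µg/ml at 4 h, and 0.734 and 0.393 CPM at 1 µg/ml and 7.96 and 4.04 CPM at 10 µg/ml at 24 h. The 10 µg/ml libraries were above those at 1 µg/ml at both times, by more at 24 h, with a dose contrast of 3.08 ± 0.54 (adjusted p = 0.035), a call lost without each library but LTA 4 h replicate 2 and LTA 24 h replicate 2 (2.53 to 3.57, adjusted p 0.0608 to 0.344). ADGRG3, an adhesion G protein-coupled receptor of neutrophils, was at 18.4 and 12.6 CPM at 1 µg/ml and 14.9 and 18.3 CPM at 10 µg/ml at 4 h, and 1.25 and 0.787 CPM at 1 µg/ml and 6.69 and 7.46 CPM at 10 µg/ml at 24 h, with a dose contrast of 2.69 ± 0.38 (adjusted p = 0.00924), lost without LTA 4 h replicate 1 or 1 µg/ml 24 h replicate 2 (2.39 to 2.54, adjusted p 0.0674 to 0.141). UPB1, an enzyme of pyrimidine breakdown, was at 146 and 114 CPM at 1 µg/ml and 137 and 147 CPM at 10 µg/ml at 4 h, and 1.69 and 1.64 CPM at 1 µg/ml and 11.9 and 8.44 CPM at 10 µg/ml at 24 h, with a dose contrast of 2.47 ± 0.30 (adjusted p = 0.00679), lost without LTA 4 h replicate 1 or 1 µg/ml 24 h replicate 2 (2.41 to 2.45, adjusted p 0.056 to 0.0816). CD14 was at 751 and 723 CPM at 1 µg/ml and 641 and 732 CPM at 10 µg/ml at 4 h, and 564 and 615 CPM at 1 µg/ml and 1375 and 1232 CPM at 10 µg/ml at 24 h, with a dose contrast of 1.25 ± 0.21 (adjusted p = 0.035). At 24 h its 10 µg/ml libraries were above those at 1 µg/ml, and at 4 h the doses overlapped. EBI3 had a dose contrast of 1.77 ± 0.30 (adjusted p = 0.0295). The single negative gene was HBB, with a dose contrast of -6.76 ± 0.56 (adjusted p = 3.61e-04): its level at 4 h was 0.491 and 0.155 CPM at 1 µg/ml against 20.8 and 23.4 CPM at 10 µg/ml.

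The promoter window of CCL20 is shown because it holds the NF-κB element described above, which 6 of 19 chemokine genes with an entry held (31.6%).
CCL20, chr2:227813718-227813817, plus strand: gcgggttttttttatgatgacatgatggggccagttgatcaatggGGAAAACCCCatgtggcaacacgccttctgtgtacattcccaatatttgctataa
The capitals mark the match, and nothing about the dose follows from it.

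**Figure D5:**
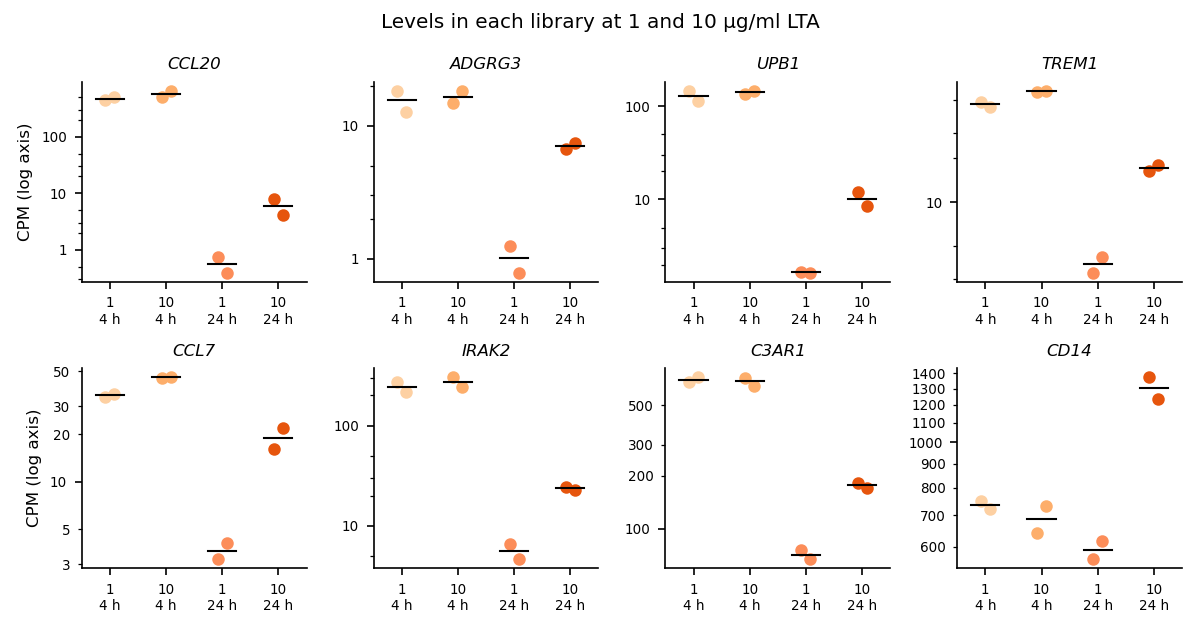
Points are CPM of single libraries on log axes and lines the mean of 2, for 8 genes called in the dose contrast, at 1 and 10 µg/ml LTA at 4 h and 24 h. Libraries at 24 h and 10 µg/ml lie above those at 24 h and 1 µg/ml in each panel.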

How the data were processed

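RNA was sequenced from wild-type HL-60 cells after preparation with the TruSeq Stranded mRNA kit, per the labels' protocols. The authors deposited raw counts of reads per gene symbol for all libraries. Per the submitters' processing notes, the tools included HISAT2 2.1.0 and fastp 0.20.0, with featureCounts 2.0.1, edgeR 3.36.0 and DESeq2 1.28.0, on GRCh38. No source used here gives the strand setting of featureCounts, so overlapping and antisense genes are uncertain.

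Of 23575 symbols, 6485 had 0 counts in all 12 dHL-60 libraries and 11866 passed filterByExpr of edgeR. Differences were tested with the quasi-likelihood F test of edgeR 4.0.16 in R 4.3.3 after TMM scaling, with 6 groups fitted over 12 libraries and Benjamini-Hochberg adjustment over all tested genes. DESeq2 1.42.0, other scalings, no filter, the 8 libraries alone, the replicate number as a block, and leaving out each library were alternatives. On simulated counts for the 11866 genes of the response difference, 38% of 108 genes with a 2-fold change and 85.9% of 92 with a 4-fold change were recovered, with 15 false calls.

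Genes were named as the 3 with the largest absolute response difference in each class and sign with a mean of at least 5 CPM in a group, up to 3 called members of each list in each sign, the 3 largest dose contrasts in each sign, and TLR2, TLR1, TLR6, CD14, MYD88, ITGAM, MPO, CCL5, CD40, KIT and MYC. Some genes that this rule names are not reported here. The members and lists were chosen with earlier results of these data known. Intervals and floors (3 counts over a group) cover counting error only. Positions and promoter sequences are from RefSeq on GRCh38.p14, in which 23283 symbols matched. Other elements were searched in the same way. A sterol element (TCAC and CCAC with any base between) matched in 1 of 18 cholesterol genes with an entry and 0.883% of all promoter entries. The E-box CACGTG matched in 0 of 21 ribosome biogenesis genes with an entry and 6.34% of all promoter entries.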

Additional observations from a re-analysis of the deposited data

Results flagged for a closer look

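The response to 10 µg/ml LTA differed between 24 h and 4 h by the test of the difference itself, more positive for 2339 genes and more negative for 1662. The same contrast between doses was called for 21 genes with a positive value and 1 with a negative value. Those counts are not stable: the positive calls numbered 0 without LTA 4 h replicate 1, 89 with the replicate block, 148 with DESeq2 and 308 with no filter on low counts.

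Among the genes the text names, 19 had responses called in opposite directions at the 2 times and a called difference. Lower with LTA at 4 h and higher at 24 h were DAB2 (6.78), SLC45A3 (5.96), S100B (5.69), GPRIN3 (7.63), LILRB1 (6.41), IFITM1 (4.58), PFKFB4 (3.67), LY96 (3.94), TLR6 (2.33), NLRC4 (2.75), CD1A (5.11) and CSF1R (4.97), with the log2 response difference in parentheses. HBB was called the same way, but untreated cells at 24 h had 0 counts, so its fitted value of 6.94 is no measured size and the difference was at least 3.71 against the floor. Higher at 4 h and lower at 24 h were S1PR3 (-2.64), CCND1 (-3.69), XBP1 (-1.93), HSP90B1 (-1.28), CCT2 (-0.85) and LYZ (-1.59). SLC45A3, a solute carrier, had 3 counts in the LTA libraries at 4 h, and its fitted value was 9.92 without LTA 4 h replicate 2. LY96, the coreceptor MD-2, was at 0.817 and 1.18 CPM untreated and 0.196 and 0.374 CPM with LTA at 4 h, and 0.958 and 0.735 CPM untreated and 3.9 and 3.83 CPM with LTA at 24 h. CCT2, a chaperonin subunit, was at 104 and 109.9 CPM untreated and 152 and 131 CPM with LTA at 4 h, and 227 and 217 CPM untreated and 155 and 172 CPM with LTA at 24 h. The response of SLC45A3 at 4 h (-3.07) was lost without untreated 4 h replicate 2 or LTA 4 h replicate 1 (-2.43 to -2.15, adjusted p 0.18 to 0.19), that of LY96 (-1.78) was lost without untreated 4 h replicate 2 or LTA 4 h replicate 1 (-1.48 to -1.41, adjusted p 0.113 to 0.125) and with DESeq2 (adjusted p 0.0666), that of CCT2 (0.41) was lost without either untreated 4 h library or LTA 4 h replicate 1 (0.30 to 0.45, adjusted p 0.0513 to 0.195) and with upper-quartile scaling (adjusted p 0.119), and that of HBB (-0.59) was lost without each library (-0.68 to -0.51, adjusted p 0.0625 to 0.18) and with DESeq2 (adjusted p 0.066). The responses at 24 h of CCT2 (-0.44) and CD1A (1.13) were lost without untreated 24 h replicate 1 or LTA 24 h replicate 1 (-0.43 to -0.41, adjusted p 0.0733 to 0.0799) and without untreated 24 h replicate 1 or LTA 24 h replicate 1 (0.89 to 1.03, adjusted p 0.0584 to 0.0844).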

How the results depend on the processing

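Of 128 named genes called in the response difference, 100 were called under every alternative run and 28 lost the call under at least 1. No called gene changed sign in any of the 1845 single-gene values recomputed (MYD88, not called and near 0, did), and 633 of 700 gene list counts stayed within 1.5 times the reported count. Leaving out 1 library gave 1597 to 2314 more positive and 1049 to 1741 more negative genes, 1536 to 2222 genes lower with LTA at 4 h, 1470 to 2010 lower at 24 h, 1274 to 1828 rising in untreated cells and 1853 to 2336 rising in treated cells. It gave 999 to 1714 genes with a called change in treated cells only, 597 to 1200 in untreated cells only, 380 to 672 in opposite directions and 219 to 332 in the same direction. The dose contrast gave 0 to 50 positive and 1 to 8 negative genes. Without a filter on low counts it gave 308 and 87, with DESeq2 148 and 12, and with the replicate block 89 and 3. Fewer libraries leave fewer residual degrees of freedom, and the cause of the other shifts was not tested. The response difference itself gave 2407 and 1763 genes with the replicate block and 2043 and 1749 with DESeq2. The main fit did not pair libraries by replicate number. Deviations of same-numbered libraries correlated over 0.1 in 5 of 15 pairs of groups (-0.204 to 0.383). Among the 4 h groups the correlations were 0.383, 0.133 and 0.207, so a structure shared by replicate number is not excluded. With 2 libraries a group, 2-fold changes were often missed in simulated counts, where few genes were changed.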

Other observations

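Gene families chosen after their values were seen are given beside the shares of all tested genes, 19.7% more positive and 14% more negative. Of 14 tested S100 genes, which encode small calcium-binding proteins, 11 had a more positive response at 24 h and 0 a more negative one, with a median of 3.09 against 0.04 over all genes. S100A3 had 0 counts in untreated cells at 24 h, and that median holds its fitted value. Untreated levels fell for 11 and rose for 0, and treated levels rose for 7 and fell for 1. S100A8, a subunit of calprotectin, was at 1751 ± 440.3 CPM untreated and 2052 ± 57.9 CPM with LTA at 4 h, and 266 ± 36.1 CPM untreated and 3434 ± 224 CPM with LTA at 24 h (mean ± SD, n = 2), with a response difference of 3.46 ± 0.26 (adjusted p = 1.72e-06, edgeR). S100A9, its partner, was at 2186 ± 645 CPM untreated and 2563 ± 137 CPM with LTA at 4 h, and 457 ± 15.4 CPM untreated and 5772 ± 763 CPM with LTA at 24 h (mean ± SD, n = 2), with a response difference of 3.43 ± 0.26 (adjusted p = 1.89e-06, edgeR).

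All 7 tested LILR genes, immune receptors with similar copies, so that their reads may be shared, were more positive, with a median of 3.90. LTA lowered 6 at 4 h and raised 6 at 24 h, while all 7 fell in untreated cells and rose in treated cells. LILRB2, an inhibitory receptor, was at 80.0 ± 2.81 CPM untreated and 37.7 ± 11.6 CPM with LTA at 4 h, and 26.2 ± 0.676 CPM untreated and 146 ± 11 CPM with LTA at 24 h (mean ± SD, n = 2), with a response difference of 3.57 ± 0.36 (adjusted p = 1.24e-05, edgeR). Of 10 SIGLEC genes, lectins that bind sialic acid, 8 were more positive and 0 more negative (median 2.17), and of 5 CD300 receptors 4 were more positive and 0 more negative (median 1.89). Of 82 cytosolic ribosomal protein genes, 1 was more positive and 3 more negative (median -0.22). Few members were called among 37 complex I subunits, 3 in each direction (median 0.12), and among 37 proteasome subunits, 2 more positive and 3 more negative (median 0.07).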
